A study of Mus musculus with 9 samples.

Results

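Trem2, Tyrobp, Gpnmb, Spp1, Mmp12, Itgax, Cd9, Lgals3 and Lyz2 were examined in single nucleus RNA-seq of mouse epididymal adipose tissue (epiAT), the visceral fat pad next to the testis. These 9 genes, of 32285 in the count matrices, were chosen by name as known genes of the lipid-associated macrophage (LAM), and each symbol matched 1 row. All mice were male C57BL/6J, and each of the 9 libraries held the nuclei of 5 pooled mice, with 1 library per diet group. Control mice were sampled at 18 weeks (C), 26 weeks (CC) and 39 weeks (CCC) of age. The obese groups received high-fat diet (HFD) during 12 weeks, with sampling at 18 weeks of age (H), or during 25 weeks, with sampling at 31 weeks (HH). For weight loss (WL), HC mice had 12 weeks of HFD and then 8 weeks of chow (26 weeks old), and HHC mice had 25 weeks of HFD and then 8 weeks of chow (39 weeks old). At 30 weeks of age, CCH mice had their first 4 weeks of HFD after being kept on the control diet until 26 weeks of age. HCH mice of the same age were returned to HFD for 4 weeks following 12 weeks on it and 8 weeks on chow. The sample labels call the control diet chow and the series design calls it low fat. In the study, controls first had a low-fat chow, and the WL groups and their controls were then moved to a standard chow. C was thus on low-fat chow at sampling, and CC and CCC were on standard chow. Comparisons that cross these controls also differ in control diet.

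LAMs gather around enlarged or dying adipocytes in obese adipose tissue, where they take up and break down lipid. Trem2 is a lipid-sensing receptor of the macrophage surface with almost no signalling tail of its own, and it passes its signal through Tyrobp (also known as DAP12), an adaptor whose phosphorylated tail recruits the kinase Syk. The other genes encode products that LAMs carry or release: the lysosomal and surface glycoprotein Gpnmb, the galactose-binding lectin Lgals3 (galectin-3), the secreted phosphoprotein Spp1 (osteopontin), the macrophage elastase Mmp12, the bacteriolytic enzyme Lyz2 (lysozyme), the integrin chain Itgax (CD11c) and the tetraspanin Cd9. Several are not particular to LAMs in the body, since Cd9 is found on endothelial cells and Lyz2 in most myeloid cells.

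All 9 genes are protein coding (GRCm38 coordinates, GENCODE vM21 gene models). Trem2 spans chr17:48346401-48354147 on the plus strand and is 36.2% intronic, the lowest share of the set. Tyrobp, at chr7:30413760-30417585 on the plus strand, is the shortest gene with 3.83 kb. Gpnmb lies at chr6:49036546-49070929 on the plus strand (34.4 kb), and Cd9 at chr6:125460266-125494791 on the minus strand (34.5 kb), where it overlaps Gm26728 and Gm28809 on the other strand. Spp1 is at chr5:104435118-104441050, Mmp12 at chr9:7344381-7369499, where it overlaps Mmp1b on the other strand, Itgax at chr7:128129547-128150657 and Lgals3 at chr14:47367751-47386160, all on the plus strand. Lyz2 lies at chr10:117277331-117282321 on the minus strand, beside its near-identical copy Lyz1 (chr10:117287797-117292868). Reads of Lyz1 and Lyz2 can be confused, so Lyz2 values in the control libraries are uncertain: macrophage-gated nuclei held 135 Lyz1 UMIs beside 258 Lyz2 UMIs in C, but 72 beside 11518 in H. UMIs (unique molecular identifiers) count captured RNA molecules, and intronic reads were counted, so a long gene can collect more of them than a short one.

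Promoter windows are shown because these genes were read as a group and their start regions can be set side by side. The RefSeq-derived table (GRCm38.p6) gave 10 windows of 250 bases before the start for 8 of the 9 genes, with 2 each for Spp1 and Mmp12 and none for Tyrobp. Below are those of Trem2 (chr17:48346151-48346400), Gpnmb (chr6:49036268-49036517), Mmp12 (chr9:7347124-7347373) and Itgax (chr7:128129300-128129549), the receptor that names the set and 3 of the genes that stayed above controls after WL. Each is printed 5′ to 3′ on the plus strand, with matches to the searched motifs in capitals.
Trem2: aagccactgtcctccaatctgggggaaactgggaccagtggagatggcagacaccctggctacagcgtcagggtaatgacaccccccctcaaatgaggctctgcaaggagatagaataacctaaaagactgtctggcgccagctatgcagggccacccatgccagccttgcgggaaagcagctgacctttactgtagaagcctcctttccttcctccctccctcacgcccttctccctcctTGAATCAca
Gpnmb: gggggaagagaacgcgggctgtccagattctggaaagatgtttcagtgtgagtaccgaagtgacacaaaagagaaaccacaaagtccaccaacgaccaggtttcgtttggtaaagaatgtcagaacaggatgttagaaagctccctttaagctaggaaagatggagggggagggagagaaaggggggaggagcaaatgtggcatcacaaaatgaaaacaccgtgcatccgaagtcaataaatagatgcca
Mmp12: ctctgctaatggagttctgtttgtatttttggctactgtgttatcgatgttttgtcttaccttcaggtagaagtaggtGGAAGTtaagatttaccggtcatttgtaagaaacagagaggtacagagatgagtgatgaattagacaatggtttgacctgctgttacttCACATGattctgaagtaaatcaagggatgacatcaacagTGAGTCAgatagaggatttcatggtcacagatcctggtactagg
Itgax: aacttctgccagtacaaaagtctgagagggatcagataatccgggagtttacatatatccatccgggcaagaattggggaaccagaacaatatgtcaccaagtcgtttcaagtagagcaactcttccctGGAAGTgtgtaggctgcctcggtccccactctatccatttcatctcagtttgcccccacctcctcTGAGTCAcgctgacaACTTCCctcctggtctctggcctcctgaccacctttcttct
Motifs were searched on both strands, so a capital stretch can hold the motif or its reverse complement. TGANTCA is a loose form of the AP-1 element, with any base allowed in the middle. It was present in 3 of the 10 windows (Trem2, Mmp12 and Itgax) and in 6.75% of all 32851 windows of the same length. The match reads TGAATCA in Trem2 and TGAGTCA in Mmp12 and Itgax. GGAAGT, an ETS core of the kind that PU.1 binds, was present in 5 of 10 windows, from Itgax, Mmp12, Spp1 and Lyz2, and in 19.7% of all windows. CATGTG, an E-box read by MITF and TFE factors, was in 2 windows (Cd9 and Mmp12) against 12.3% of all, and the E-box CACGTG was in 0 of 10 against 6.02%. CATGTG and CACGTG cannot occupy the same letters, and no hit of 1 motif lay on another. In Trem2 the match lay 9 to 3 bases before the start, in Itgax 56 to 50 and in Mmp12 44 to 38. The Mmp12 window shown belongs to the second RefSeq start (7347374), which lies inside the gene as given above, and the window at the first start (chr9:7344147-7344396) held GGAAGT but no TGANTCA. The printed Gpnmb window held none of these letters. The printed windows include all 3 with TGANTCA, whereas the Lgals3 window, which held 0 matches, is not printed. A match is a string of letters and not a measured binding site.

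The libraries held 5173 (CC) to 14833 (HH) barcodes and 22599619 (CCC) to 66615262 (HHC) UMIs. Kept nuclei had 500 to 3000 detected genes, no more than 40000 UMIs and a median of 1941 to 3124 UMIs per library. Each nucleus was assigned to 1 of 12 cell classes by 8 markers per class, none of them a LAM gene of the set, and 46.0% to 71.7% of kept nuclei received a class. The macrophage gate (8 markers, among them Adgre1, Csf1r, Mertk, Cybb, Mpeg1 and Cd84) held 943 (C), 233 (CC), 240 (CCC) and 1277 (CCH) nuclei in the libraries without a long HFD, and 3425 (H), 3549 (HH), 833 (HC), 2178 (HHC) and 2448 (HCH) in the others. These markers together reached 2943 to 5660 CPM (UMIs scaled to a total of 1e6) in macrophage-gated nuclei and 271 to 699 CPM in non-immune nuclei (adipocyte, progenitor, mesothelial, endothelial, lymphatic endothelial, smooth muscle or pericyte, and epithelial). A second list of 8 macrophage markers gave 569 to 2489 CPM against 21.5 to 664. The 10 genes that led the macrophage-gated class by fold (Olfr112, Olfr113, Olfr111 and others) included no marker of its own or of another class. Between 9.32% and 19.3% of macrophage-gated nuclei sat at the minimum of 2 markers, and 36.0% to 53.2% had a lead over the next class exactly at the limit of 2. Nuclei with at least 2 macrophage markers but no class numbered 597 (C), 220 (CC), 258 (CCC), 1108 (H), 1352 (HH), 375 (HC) and 905 (HHC). Nuclei without a class held 73.5% of the Mmp12 UMIs in CCC and 56.5% in CC, against 37.6% in C and 35.4% in H. For Trem2 these shares were 56.1%, 53.6%, 34.2% and 32.8%. The bearing of this on ratios against CC and CCC was not tested.

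With 1 library per group there was no test between groups. Intervals are exact 95% limits (Poisson for CPM, conditional for ratios, Clopper-Pearson for shares) and cover counting error only, not the spread between mice. The labels give 2 library sets. S019 holds the controls CC and CCC with the WL libraries HC and HHC, and S075 holds the remaining 5 libraries. H against C, HC against CC, HHC against CCC and HCH against CCH stayed within a set, whereas HH against CC, HC against H and HHC against HH crossed sets, so that set and diet cannot be told apart there. HH had no control library of its own age and was set against CC, which also served HC. Any 2 libraries shared 8 to 55 cell barcodes.

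Markers of other classes inside the macrophage gate differed between the groups. The 8 adipocyte markers summed to 82.1 CPM in H, 143 in HH and 305 to 430.4 in HC, HHC, HCH and CCH, against 443 in C, 857 in CCC and 2094 in CC, and none of the 8 was at 0 in all macrophage-gated nuclei. The 8 B cell markers summed to 535 to 700 CPM in C, CC, CCC and CCH and to 66.9 to 193 CPM in the other 5 libraries, also with none at 0. The 8 progenitor markers summed to 341 (C), 683 (CC), 425 (CCC) and 451 CPM (CCH), against 657 (H), 1012 (HH), 385 (HC), 473 (HHC) and 1469 CPM (HCH). Smooth muscle or pericyte markers were lowest in H (5.41 CPM) and highest in HC (224 CPM). Mast cell markers were at 8.67 to 22.4 CPM in C, CC, CCC, CCH and HC, and at 76.1 (H), 191 (HH), 49.3 (HHC) and 52.0 CPM (HCH). Monocyte markers ranged from 41.9 CPM (HC) to 282 CPM (HCH) and neutrophil markers from 35.2 CPM (H) to 103 CPM (HHC). Their part in the results was not tested.

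Each of the 9 genes was at a lower level in the macrophage-gated nuclei of mice never fed HFD than in those of obese mice. Trem2, the lipid receptor, was at 9.89 CPM in C (95% interval 6.52 to 14.4), 2.49 in CC (0.301 to 8.98, from 2 UMIs) and 36.4 in CCC (22.6 to 55.7). It reached 357 CPM in H (346 to 369) and 366 in HH (353 to 378), a pair whose ratio interval included equality. After WL it was at 130.0 CPM in HC (117 to 144) and 292 in HHC (281 to 304). Each of the 5 libraries with an earlier or current long HFD was above each of the 4 others, CCH with 13.9 CPM included.

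After WL, Tyrobp, the signalling adaptor of Trem2, was further below its obese level than the receptor was, in comparisons that cross the library sets. It was at 16.5 (C), 18.7 (CC) and 52.0 (CCC) CPM in controls, and at 328 in H and 389 in HH. In HC it was at 44.6 CPM (37.3 to 52.9), which did not differ beyond counting error from CCC, and in HHC at 123. Renewed HFD in HCH gave 213 CPM and first HFD in CCH gave 32.0.

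Gpnmb and Lgals3, of the lysosome and the lectin family, were not lower after WL than in obesity. Gpnmb was at 39.2 (C), 23.6 (CC) and 219 (CCC) CPM in controls, at 2478 in H and 2198 in HH, and at 2576 in HC and 4210 in HHC, its highest level. Lgals3 was already well detected in controls, with 127 CPM in C, 46.0 in CC and 249.8 in CCC. Obese libraries stood at 1270 (H) and 1162 (HH), and WL libraries at 1329 (HC) and 1284 (HHC), and the intervals of HC against HHC and of HHC against H included equality. In HCH both were lower than in the other 4 libraries with at least 12 weeks of HFD, with 1169 CPM for Gpnmb and 903 for Lgals3.

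The secreted products differed among themselves. Mmp12 was at 14.9 to 182 CPM in C, CC and CCC, at 3721 in H and 2180 in HH, and at 1777 in HC and 3169 in HHC. Spp1 was at 4.76 CPM in C, 1.73 in CCC (1 UMI) and 0 UMIs in CC, which allows up to 4.59 CPM there. It was at 128 CPM in H and 109 in HH, and after WL at 4.42 in HC (2.36 to 7.56) but 103 in HHC, so the HC level was within counting error of C and the HHC level within that of HH. Lyz2 was at 94.5 (C), 92.0 (CC) and 279 (CCC) CPM in controls, at 1112 in H and 1539 in HH, and at 248 in HC and 739 in HHC. The HC level of Lyz2 lay within counting error of CCH (260.0 CPM).

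The surface proteins Itgax and Cd9 were both well above controls after WL, and Itgax was highest in HHC. Itgax, the integrin chain of CD11c, was at 20.2 CPM in C, 1.24 in CC (1 UMI) and 24.3 in CCC, at 217 in H and 170.2 in HH, and at 169 in HC and 305 in HHC. Cd9 was at 25.6, 19.9 and 45.1 CPM in C, CC and CCC, at 367 in H and 288 in HH, and at 197 in HC and 281 in HHC. HH and HC for Itgax, and HH and HHC for Cd9, could not be ordered within counting error.

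**Figure D1:**
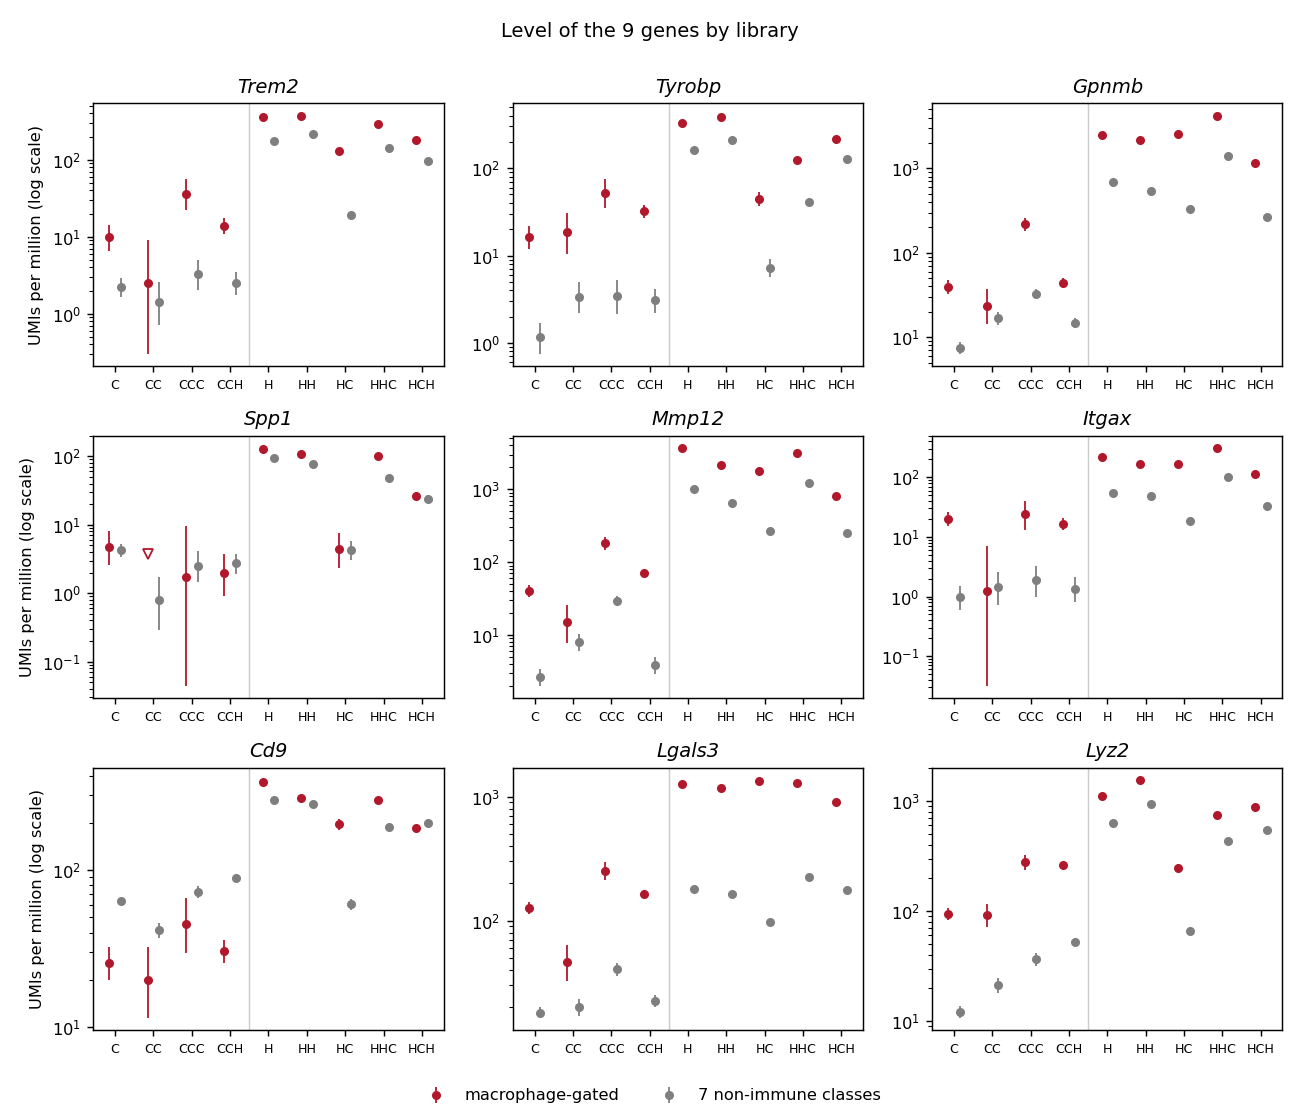
Level of each gene (CPM, log axis) in macrophage-gated nuclei (red) and non-immune nuclei (grey) of the 9 libraries, 1 point per library, with exact 95% Poisson bars (counting error only); the open triangle is the 3-count floor of Spp1 in CC. The red points of H, HH, HHC and HCH lie above those of C, CC, CCC and CCH for all 9 genes, and so do the grey points.

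The non-immune nuclei of the same libraries carried the same RNAs, and this background moved with diet. Trem2 was at 1.44 to 3.29 CPM in non-immune nuclei of C, CC, CCC and CCH, but at 175 CPM in H, 219 in HH, 142 in HHC, 96.0 in HCH and 18.9 in HC. Counted per nucleus rather than as CPM, Trem2 was close to even over the larger non-immune classes. In H it was at 0.444 to 0.600 UMIs per nucleus over the non-immune classes with at least 50 nuclei, and at 1.08 in macrophage-gated nuclei. Mast cell nuclei of H were lower, at 0.184 from 7 UMIs in 38 nuclei. RNA released from broken cells enters every droplet in such preparations, and a level shared by all classes is read here as background. How these molecules reached the non-immune nuclei was not tested.

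Above that background, each gene stood out to a different degree. In H, the CPM of macrophage-gated over non-immune nuclei was 7.01-fold for Lgals3, 4.06-fold for Itgax, 3.67-fold for Mmp12 and 3.58-fold for Gpnmb. The same ratio was 2.04-fold for Trem2 (log2 1.03, interval 0.94 to 1.12), 2.04-fold for Tyrobp, 1.76-fold for Lyz2, 1.36-fold for Spp1 (log2 0.44, interval 0.31 to 0.57) and 1.32-fold for Cd9. In HH the ratios went from 7.07-fold (Lgals3) to 1.08-fold (Cd9). In H, the 4 genes with the highest ratios measured 18.4 to 34.4 kb, and Trem2, Tyrobp, Lyz2 and Spp1, with lower ratios, measured 3.83 to 7.75 kb. Cd9, at 34.5 kb and 94.1% intronic, was the exception. The order by length did not hold in HC, where Trem2 and Tyrobp were near Mmp12, with values given below. The levels of Cd9 in other classes are given below, with those of Lgals3, Trem2 and Gpnmb.

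**Figure D2:**
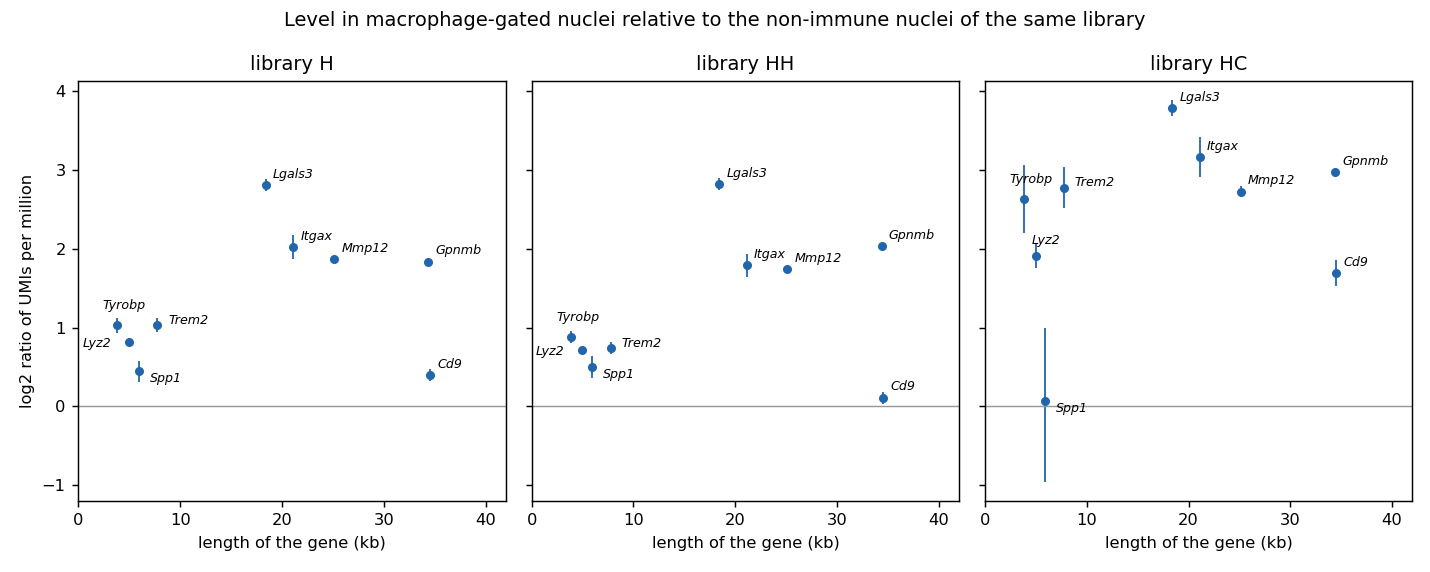
Log2 ratio of CPM in macrophage-gated to non-immune nuclei (vertical axis) against gene length in kb (horizontal axis) for the 9 genes in H, HH and HC, with exact 95% intervals. Long genes other than Cd9 lie above the short genes in H and HH, and 8 of 9 genes, all but Spp1, lie higher in HC than in H.

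In HC the macrophage level stood further above the background than in H for 8 of 9 genes. The background itself was not low for every gene there, since non-immune nuclei held 328 CPM of Gpnmb and 268 of Mmp12 in HC, against 266 and 253 in HCH. Macrophage-gated nuclei of HC carried 13.8 times the non-immune CPM for Lgals3, 8.96 times for Itgax, 7.84 times for Gpnmb, 6.86 times for Trem2, 6.63 times for Mmp12, 6.19 times for Tyrobp, 3.75 times for Lyz2 and 3.24 times for Cd9. Spp1 was the exception at 1.05-fold (log2 0.07, interval −0.96 to 1.00), with no excess over background detectable from 13 UMIs. In HHC, where the background was high again, the ratios were 1.49-fold (Cd9) to 5.67-fold (Lgals3), with Trem2 at 2.06-fold. In HCH, Cd9 was at 0.93-fold (log2 −0.11, interval −0.20 to −0.01), below the CPM of non-immune nuclei. Spp1 was at 1.11-fold there (interval −0.10 to 0.40 on the log2 scale), so that an excess was not resolved beyond counting error. In CC the ratio intervals of Trem2, Gpnmb, Spp1, Mmp12 and Itgax included 1, and that of Spp1 also did in C, CCC and CCH.

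The macrophage-gated nuclei of obese mice carried higher levels of all 9 genes than those of controls, which is the question H against C and HH against CC address. A gene was counted as higher where its CPM was at least 2-fold higher and the interval of the ratio excluded 1, and genes with fewer than 20 UMIs in the pair were not tested. In H against C, 9 of 9 were higher, where 25.2% of all genes tested were. The median log2 ratio of the 9 was 4.32 against 0.28 over all genes tested. The log2 ratio was 6.52 for Mmp12 (interval 6.25 to 6.80), 5.98 for Gpnmb (5.71 to 6.27), 5.17 for Trem2 (4.63 to 5.78), 4.74 for Spp1 (3.96 to 5.66), 4.32 for Tyrobp and between 3.32 (Lgals3) and 3.84 (Cd9) for the others. In the non-immune nuclei of the same pair the ratio was 8.59 for Mmp12, 7.12 for Tyrobp and 6.30 for Trem2, larger than in the macrophage gate.

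In HH against CC, again 9 of 9 were higher (22.3% of all genes tested), with a median of 6.54 against 0.34. Trem2 had a log2 ratio of 7.20 (interval 5.35 to 10.25), wide because CC held 2 UMIs, and Itgax 7.10 (4.62 to 12.40) against 1 UMI. Spp1, at 0 UMIs in CC, was at least 29.3-fold higher in HH, counted against a floor of 3 UMIs in the CC library. With C, of the same library set as HH, in place of CC, 9 of 9 were also higher (27.1% of all genes tested). In non-immune nuclei, the background of the same libraries, 9 of 9 genes were called higher in H against C (27.1% of all genes tested) and in HH against CC (29.4%), with medians of 5.78 and 5.46, so the higher level was not particular to the macrophage gate.

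After WL the group remained higher than in age-matched controls, with gaps between genes. In HC against CC, 8 of 8 genes tested were higher (9.02% of all genes tested), with a median log2 ratio of 5.28 against −0.02. Spp1, with 13 UMIs in HC and 0 in CC, was below the minimum. Mmp12 (6.90), Gpnmb (6.77, interval 6.12 to 7.501), Trem2 (5.71, 3.85 to 8.76) and Lgals3 (4.85, 4.39 to 5.36) lay far above Lyz2 (1.43, 1.08 to 1.80) and Tyrobp (1.26, 0.48 to 2.13). HC and HH were both set against CC, so these comparisons share a library. With CCC as the control, an alternative added after seeing the data, 6 of 8 were higher (6.12% of all genes tested): Gpnmb was at 3.56, Mmp12 at 3.29, Itgax at 2.80, Lgals3 at 2.41, Cd9 at 2.13 and Trem2 at 1.84, while Tyrobp was at −0.22 and Lyz2 at −0.17. The HC values of Tyrobp and Lyz2 thus lay between those of the control libraries. In HHC against CCC, 9 of 9 were higher (7.88% of all genes tested), with a median of 3.003 against 0.09, from 5.89 for Spp1 (3.40 to 11.19, 1 UMI in CCC) and 4.27 for Gpnmb (4.02 to 4.53) down to 1.40 for Lyz2 and 1.24 for Tyrobp (0.71 to 1.81). In non-immune nuclei 8 of 9 were higher in HC against CC (8.91% of all genes tested, Cd9 at 0.56 not among them), with a median of 2.43, and 9 of 9 in HHC against CCC (10.6%), with a median of 4.25.

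**Figure D3:**
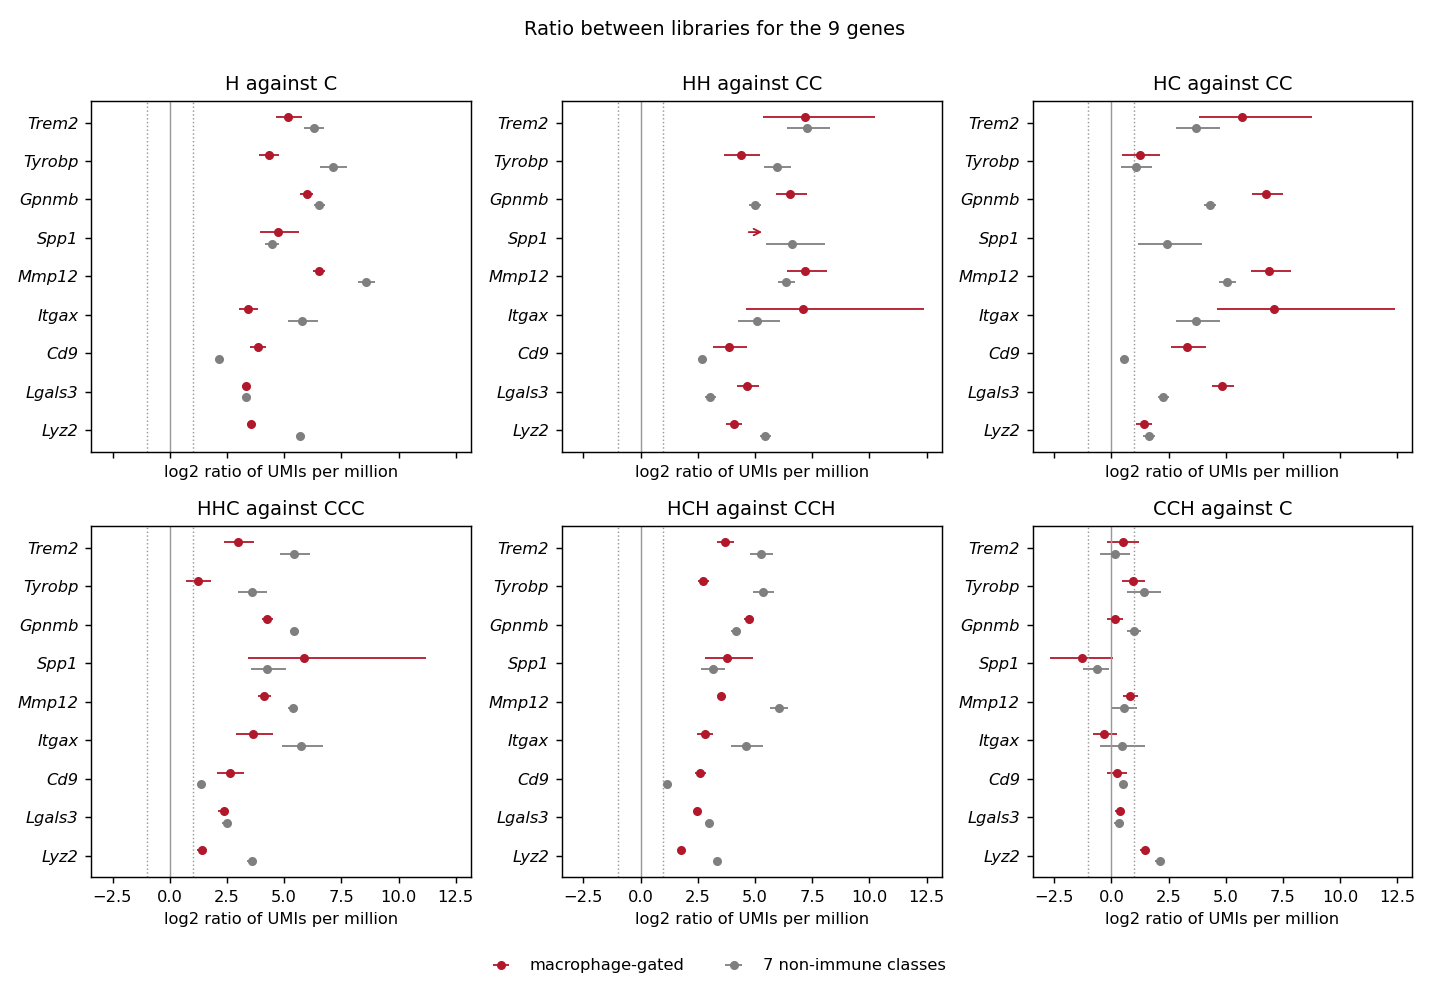
Log2 ratio of CPM in macrophage-gated nuclei for the 9 genes in 6 comparisons, with exact conditional 95% intervals (counting error only); dotted lines mark 2-fold, and an arrow marks a lower bound where the control held 0 UMIs. Among the genes tested in HC against CC, Tyrobp and Lyz2 lie closest to 0, and in CCH against C all genes but Lyz2 lie within the dotted lines or have intervals that reach 0.

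The genes parted when WL was set against obesity itself. In HC against H, 5 of 9 genes were lower by at least 2-fold (23.1% of all genes tested), namely Spp1 (−4.85, interval −5.76 to −4.07), Tyrobp (−2.88, −3.14 to −2.63), Lyz2 (−2.16, −2.27 to −2.06), Trem2 (−1.46, −1.61 to −1.31) and Mmp12 (−1.07, −1.11 to −1.02). Gpnmb (0.06) and Lgals3 (0.07) were within 2-fold and close to 0, and Itgax was at −0.36 and Cd9 at −0.90. In HHC against HH only Tyrobp (−1.66) and Lyz2 (−1.06) were lower by at least 2-fold (9.95% of all genes tested). There Trem2 was at −0.32, Spp1 at −0.09 (interval −0.22 to 0.04), Cd9 at −0.03, Lgals3 at 0.14, Mmp12 at 0.54, Itgax at 0.84 and Gpnmb at 0.94. Tyrobp and Lyz2 were the 2 genes lower by at least 2-fold in both. The non-immune nuclei differed too. In HC against H, 8 of 9 genes were lower there (27.7% of all genes tested), with Tyrobp at −4.48, Spp1 at −4.47, Lyz2 at −3.25, Trem2 at −3.21, Cd9 at −2.20, Mmp12 at −1.92, Itgax at −1.51 and Gpnmb at −1.08, and Lgals3 at −0.91 within 2-fold. In HHC against HH the non-immune log2 ratio was −2.36 for Tyrobp, −1.10 for Lyz2, 1.39 for Gpnmb and 1.03 for Itgax. Both comparisons cross the library sets, as given above.

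**Figure D4:**
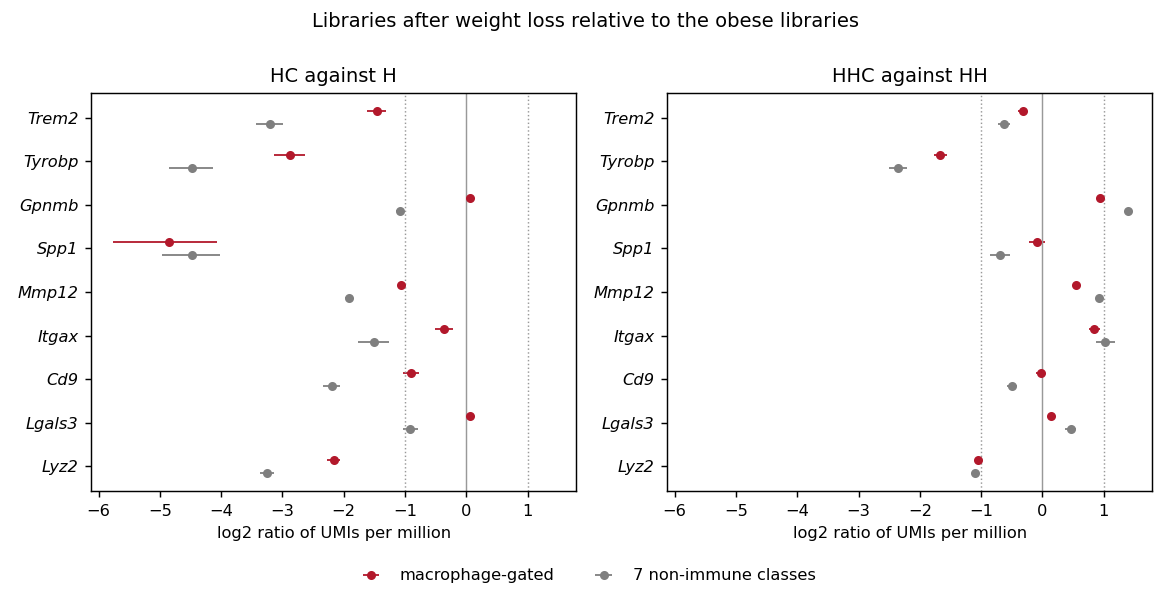
Log2 ratio of CPM after WL to CPM in obesity in macrophage-gated nuclei (HC against H and HHC against HH), with exact conditional 95% intervals. Spp1 lies at −4.85 in the first comparison and at −0.09 in the second, and Gpnmb and Lgals3 lie at or above 0 in both.

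The excess per nucleus, that is the UMIs per macrophage-gated nucleus minus those per non-immune nucleus, was also compared. The subtracted level of Cd9 includes endothelial classes with levels of their own, and Lgals3, Trem2 and Gpnmb also had levels in other classes. For HC the excess was, relative to H, 150% for Cd9, 143% for Gpnmb, 131% for Lgals3, 104% for Itgax, 67.0% for Trem2, 63.4% for Mmp12, 40.5% for Lyz2, 24.5% for Tyrobp and 0.321% for Spp1. For HHC relative to HH it was 66.0% for Tyrobp, 77.2% for Lyz2 and 414% for Cd9. For the other 6 genes it lay between 151% (Trem2) and 258% (Gpnmb). HC and HHC nuclei were deeper than those of H and HH, with medians of 3352 and 3808.5 UMIs in the macrophage gate against 2845 and 2386, and this moves a value per nucleus.

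A second HFD was set against a first HFD of the same length in HCH against CCH. In macrophage-gated nuclei 9 of 9 genes were higher in HCH (15.6% of all genes tested), with a median log2 ratio of 2.80 against 0.18. Gpnmb was at 4.73 (4.53 to 4.94), Spp1 at 3.77 (2.82 to 4.92), Trem2 at 3.70, Mmp12 at 3.51 and Lyz2 at 1.76 (1.67 to 1.85). In non-immune nuclei 9 of 9 were higher too (11.8% of all genes tested), with a median of 4.17. The excess per nucleus in HCH was 2.66% of that in H for Cd9, 14.1% for Spp1, 25.4% for Mmp12 and 57.7% to 89.0% for the other 6 genes. For Lyz2 this excess was 1.40 UMIs in HCH and 0.735 in CCH, less than 2-fold apart.

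How far the first 4 weeks of HFD differed from control depended on the control library. In CCH against C only Lyz2 was higher by at least 2-fold (1 of 9, where 2.55% of all genes tested were), at 2.75-fold (log2 1.46, interval 1.26 to 1.66). Tyrobp was at 0.96 (0.47 to 1.47), Mmp12 at 0.82 (0.51 to 1.15) and Lgals3 at 0.36 (0.18 to 0.55). Intervals included 0 for Trem2 (0.49, −0.18 to 1.20), Gpnmb, Spp1, Itgax and Cd9. CCH mice were 12 weeks older than C mice, so age and diet cannot be told apart in this pair. Against CC, nearer in age but of the other library set, an alternative added after seeing the data, 5 of 8 genes tested were higher (5.31% of all genes tested): Itgax at 3.72 (1.19 to 9.04, 1 UMI in CC), Trem2 at 2.49 (0.57 to 5.56, 2 UMIs in CC), Mmp12 at 2.27 (1.44 to 3.24), Lgals3 at 1.82 (1.35 to 2.34) and Lyz2 at 1.499 (1.16 to 1.86). In non-immune nuclei of CCH against C, Lyz2 was at 2.13 and Tyrobp at 1.41.

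Over all kept nuclei, which mixes the number of macrophages with the RNA in each so that the 2 cannot be told apart, 9 of 9 genes were higher in each of the 5 comparisons with controls. The shares of all genes tested were 25.7% (H against C), 31.3% (HH against CC), 10.6% (HC against CC), 11.7% (HHC against CCC) and 12.3% (HCH against CCH). The macrophage gate took 4.16% (CCC) to 8.10% (C) of kept nuclei in C, CC and CCC, and 17.5% in CCH. It took 34.9% in H and 26.6% in HH, fewer in HC (15.5%), and 23.9% in HHC and 24.8% in HCH. Over all nuclei of H against C, Mmp12 was at 8.41 on the log2 scale and Trem2 at 6.42, against 6.52 and 5.17 within the macrophage gate. In HC against CC they were at 5.74 and 4.50, against 6.90 and 5.71 within the gate. With CCC as the control of HC, 5 of 9 were higher over all kept nuclei (5.24% of all genes tested).

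Some of the genes had levels of their own outside macrophages, seen where the background was low. Cd9 was highest in lymphatic endothelial nuclei, with 365 (C), 138 (CC), 407 (CCC) and 283 (CCH) CPM, and it was at 93.3 to 199 CPM in endothelial nuclei, so that macrophage-gated nuclei of C had 0.406 times the non-immune level. Lgals3 was at 54.9 to 83.2 CPM in mesothelial nuclei, the lining cells of the fat pad, of these 4 libraries. Trem2 was at 17.4 CPM (10.6 to 26.9, 20 UMIs) in mesothelial nuclei of C, where macrophage-gated nuclei had 9.89, and at 9.04 to 14.5 CPM in those of CC, CCC and CCH from 4 to 12 UMIs. Gpnmb was at 23.7 to 61.0 CPM in progenitors. Spp1 in epithelial nuclei (6.77 to 31.3 CPM) and Itgax in dendritic cell nuclei (37.6 to 64.4 CPM) rested on 1 to 11 and 1 to 4 UMIs.

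In H, HH and HHC, most macrophage-gated nuclei carried several of the 9 genes at once, and many non-immune nuclei did too. Each nucleus was thinned to 1000 UMIs, and shallower nuclei were left out (at most 102 macrophage-gated nuclei, in HH). At least 3 of the 9 genes were found in 79.3% of macrophage-gated nuclei in H (77.9 to 80.7), 75.8% in HH, 75.8% in HHC, 43.4% in HCH and 42.9% in HC (39.5 to 46.3). In C, CC, CCC and CCH the share was 0.548%, 0.429%, 2.75% and 1.26%. The same share in non-immune nuclei was 47.4% in H, 45.3% in HH, 47.4% in HHC, 19.9% in HCH and 5.20% in HC (4.39 to 6.12), and at most 0.285% in the other 4. Unthinned, it was 98.6% of macrophage-gated and 92.4% of non-immune nuclei in H, and 77.6% and 32.5% in HC. In H the thinned share was 26.1% in adipocyte, 46.2% in progenitor, 67.0% in endothelial, 72.4% in T or NK cell and 75.5% in B cell nuclei, close to that of macrophages in the latter 2. Without thinning the shares in these classes were close to even, at 88.7%, 92.7%, 91.2%, 88.6% and 92.9%, with median depths of 4560.5, 2684, 1529, 1301.5 and 1275 UMIs. The median depth before thinning was 2845 UMIs in macrophage-gated and 2559 in non-immune nuclei of H, and 3352 and 3326 in HC. The shares in H, HH and HHC are given as values over a high background and not as counts of LAMs.

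Among the 5 libraries with at least 12 weeks of HFD, the share in non-immune nuclei was lowest in HC, and the genes were paired within nuclei there first. Macrophage-gated nuclei of HC with a Gpnmb UMI after thinning (534) carried Cd9 in 20.8% (17.4 to 24.5) and those without (287) in 6.27% (3.76 to 9.73). Itgax was in 15.9% and 5.57%, Mmp12 in 54.5% and 26.5%, and Lgals3 in 62.4% and 32.8% of the same 2 groups. Lyz2 (19.7% and 18.8%) and Tyrobp (4.31% and 4.88%) did not separate by Gpnmb. Trem2 was in 12.5% (9.86 to 15.7) and 6.62% (4.03 to 10.1), with intervals that overlap slightly. Non-immune nuclei of HC separated by Gpnmb as well, with intervals that did not overlap for Itgax (3.76% and 1.76%), Lyz2 (10.5% and 6.03%), Lgals3 (12.9% and 8.27%) and Mmp12 (31.1% and 24.2%). Cd9 (6.65% and 5.34%) and Trem2 (2.26% and 2.13%) had overlapping intervals there. The separation was not limited to HC: Lgals3 was in 62.8% and 43.6% of macrophage-gated nuclei with and without Gpnmb in H, and in 58.9% and 37.0% in HCH. Itgax was in 17.7% and 10.7% in H and in 22.3% and 12.8% in HHC. In non-immune nuclei Lgals3 was in 18.5% and 14.4% in H and in 20.1% and 16.5% in HCH. There Itgax was in 5.95% and 4.44% in H and in 10.8% and 8.56% in HHC. Of these non-immune pairs, only Lgals3 in H had intervals that did not overlap. Other genes separated in non-immune nuclei too. In H, intervals also did not overlap for Mmp12 (67.8% and 57.2%), Lyz2 (54.1% and 43.1%) and Cd9 (28.7% and 23.1%). Those of Trem2, Tyrobp, Spp1 and Itgax did overlap in H. In HHC they did not overlap for Trem2 (15.2% and 10.8%), Mmp12, Cd9, Lgals3 and Lyz2, and did for Tyrobp, Spp1 and Itgax. Lyz2 went the other way in macrophage-gated nuclei of HCH, at 52.7% with Gpnmb and 60.3% without, and these intervals did not overlap. Nuclei of 1 library are not replicates, and these intervals describe this library.

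Genes around the set were described from 4 lists, without a test. Values are given in the order H against C, HH against CC, HC against CC, HHC against CCC, HCH against CCH, all in macrophage-gated nuclei. Of 9 Trem2 signalling partners, 3, 4, 1 (of 8 tested), 2 and 3 were higher and 0 were lower. The shares of all genes tested that were higher were 25.2%, 22.3%, 9.02%, 7.88% and 15.6%, near the share of partners in H against C and in HC against CC. Hcst, an adaptor akin to Tyrobp, was at 2.93 CPM in C, 14.6 in H and 18.7 in HH, with 0 UMIs in CC, and at 1.70 in HC. It led this list because 0 UMIs in CC leave its mean log2 ratio infinite. Its log2 ratio was 2.31 in H against C, 0.14 in HHC against CCC (interval −1.49 to 2.47) and 1.15 in HCH against CCH. Lat2, an adaptor of immune cells that carries tyrosines for phosphorylation, had log2 ratios of 2.40, 3.42, 2.90, 1.37 and 1.54. Apoe, a lipoprotein component that Trem2 binds, was at 1.81, 2.66, −0.54, 1.59 and 1.61, from 303 CPM in C to 1062 in H, 1947 in HH, 212 in HC and 1138 in HHC. Inpp5d, a lipid phosphatase of immune cells, ranged from −0.50 (H against C) to 0.12 (HC against CC). Plcg2, the phospholipase downstream of Syk, was at −0.78, −0.81, −0.22, −0.65 and −0.82. In H, the CPM of macrophage-gated over non-immune nuclei was 15.5-fold for Inpp5d, 8.20-fold for Plcg2 and 6.19-fold for Lat2. It was 3.24-fold for Hcst and 1.51-fold for Apoe.

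Of 14 lipid and lysosomal genes, 13, 12, 9, 13 and 13 were higher in the same 5 comparisons and 0, 1, 1, 0 and 0 lower, with medians of 2.42, 2.71, 1.86, 1.96 and 1.91. The shares of all genes tested called higher were those given for the partners (25.2%, 22.3%, 9.02%, 7.88% and 15.6%). Atp6v0d2, a subunit of the proton pump, was at 3.68, 5.73, 5.64, 2.80 and 3.66, Ctsl, a lysosomal cysteine protease, at 5.14, 4.03, 1.998, 4.42 and 3.30, and Ctsd, a lysosomal aspartic protease, at 3.99, 3.95, 3.12, 3.62 and 2.60. Pla2g7, a phospholipase that acts on oxidised lipids, was at 1.30, 1.18, 0.97, 1.24 and 0.64. Fabp4, a fatty acid carrier that adipocytes make in quantity, was at 0.17, −1.73, −2.29, 0.21 and 1.64, and the adipocyte markers in the gate given above were highest in CC, the control of the 2 negative values. In HC against H, 6 of the 14 were lower (23.1% of all genes tested), and in HHC against HH 0 (9.95%). The background differed between these genes. In H, the CPM of macrophage-gated over non-immune nuclei was 23.8-fold for Atp6v0d2 and 5.16-fold for Pla2g7. It was 1.54-fold for Ctsd, 1.53-fold for Ctsl and 0.318-fold for Fabp4, so non-immune nuclei carried much of the level of Ctsd and Ctsl.

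Of 9 receptors and partners of the encoded proteins, 4, 4, 4, 5 and 2 were higher and 1, 1, 1, 1 and 0 lower, beside the same shares of all genes tested, and 2 of 9 in HCH against CCH was near its share of 15.6%. Cd44, which binds osteopontin, was at 1.40, 3.34, 2.82, 1.52 and 0.62. Itgb2, the beta chain that pairs with Itgax, was at 1.88, 2.11, 2.17, 1.76 and 0.76, and Itgb5, a partner chain of the osteopontin-binding integrin Itgav, was at 2.42, 1.92, 1.93, 1.91 and 1.73. Cd81, a tetraspanin partner of Cd9, was at 0.33, 0.81, −1.22, −0.49 and 0.83. Itga9, an integrin chain that also binds osteopontin, was at −1.08, −0.90, −0.88, −1.50 and −0.79. In H, the CPM of macrophage-gated over non-immune nuclei was 5.39-fold for Cd44, 3.02-fold for Itgb2 and 1.38-fold for Itgb5. It was 0.633-fold for Itga9 and 0.444-fold for Cd81. Of 8 perivascular macrophage genes, not all of them receptors, 6, 5, 6, 7 and 4 were lower and 0, 1, 0, 0 and 0 higher, with medians of −2.18, −1.46, −2.18, −2.05 and −0.88. Of all genes tested, 11.1%, 12.0%, 10.9%, 6.70% and 3.81% were lower. Folr2, a folate receptor, went the other way in the obese libraries, at 0.43, 1.02, −0.61, −1.13 and −0.22, and was the gene called higher in HH against CC. The scavenger receptor Stab1 lay between −0.46 (HHC against CCC) and 0.15 (HH against CC), and the mannose receptor Mrc1 was at −1.12, −0.91, −1.25, −1.01 and −0.56. Lyve1, a hyaluronan receptor, was at −2.70, −1.98, −3.11, −3.75 and −1.44, and Timd4, a phosphatidylserine receptor of resident macrophages, at −4.05, −3.86, −3.17, −3.44 and −1.56. In H, the CPM of macrophage-gated over non-immune nuclei was 15.1-fold for Mrc1, 8.70-fold for Timd4, 8.16-fold for Stab1, 2.81-fold for Lyve1 and 2.29-fold for Folr2. For Folr2 it was 15.8-fold in C, 6.79-fold in CC and 2.08-fold in HH. The part of this background in the Folr2 ratios was not tested. 

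Over the 9 libraries the genes whose level in macrophage-gated nuclei moved most like that of Trem2 were Cd84 (Pearson r 0.994 of log2(CPM + 1)), Cd300a (0.993), Ctss (0.991), Lat2 (0.991), Gusb (0.988), 4933400F21Rik (0.987), Degs2 (0.987) and Pianp (0.987), of 12038 genes compared. The libraries fall into a low and a high cluster, so r is only a description, and Cd84 is one of the gate's markers. Within the set, Mmp12 was closest to Trem2 (0.985), and Tyrobp (0.902) and Spp1 (0.895) were the least close.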

How the data were processed

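Nuclei of snap-frozen epiAT were sequenced with 10x 3′ chemistry. The authors aligned reads to mm10 with Cell Ranger (6.1.2), introns included, and deposited raw UMI counts per gene and barcode for 9 libraries. In the study, doublets were called with scDblFinder, which is not part of these counts and was not repeated. Free RNA was estimated there with SoupX, and the authors report that none of the samples needed correction.

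Nuclei with 500 to 3000 genes and at most 40000 UMIs were kept. Totals excluded Malat1 and mitochondrial genes. A marker counted where its UMIs exceeded the 0.05 Poisson tail set by nuclei of other classes in the library at that depth (10 rounds). A class needed at least 2 markers and a lead of 2 over the next class. Not every marker is reported here. Nuclei with markers of 2 classes and no such lead were left out, which was the only treatment of doublets. Counts were summed per library and class, scaled to CPM, and compared as ratios with exact 95% intervals, at least 20 UMIs per pair and a floor of 3 counts. Because each group was 1 library, no test was run. The members, lists and comparisons were chosen with earlier results of these data known, and the gate's scoring rule was set after seeing the data. The text names all 9 members, the 3 highest and 2 lowest genes of each list by mean log2 ratio over 4 comparisons, and the 8 genes most like Trem2 with at least 200 UMIs. Alternatives were other gates, depths, scalings (TMM) and controls. The scripts were tested on simulated data. Python (3.11.15), NumPy (2.4.6), SciPy (1.17.1), R (4.3.3) and edgeR (4.0.16, TMM factors only) were used. Seurat (4.1.0) is named in the submitters' processing notes.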

Additional observations from a re-analysis of the deposited data

Results flagged for a closer look

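Mmp12 and Itgax are given here because the ratio of each had one sign in the short WL comparison and the other sign in the long one. The log2 ratio of CPM in macrophage-gated nuclei was −1.07 for Mmp12 in HC against H and 0.54 in HHC against HH. For Itgax, the integrin chain of CD11c, it was −0.36 in HC against H and 0.84 in HHC against HH. Of these 4 ratios, that of Mmp12 in HC against H passed 2-fold. In non-immune nuclei the signs changed in the same way, with Mmp12 at −1.92 and 0.92 and Itgax at −1.51 and 1.03, and with the non-immune level per nucleus subtracted, Itgax in HC was at 104% of H. The difference was not tested, since each group was 1 library, and both comparisons cross the library sets.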

How the results depend on the processing

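No paired analysis was possible because each group was 1 library. In macrophage-gated nuclei the number of members at least 2-fold higher changed by at most 2 genes under other gates, no gene limit, TMM, kept mitochondrial genes, per-nucleus weights and the other controls of HH and HC. TMM moved the median log2 ratio of all genes tested from −0.02 to 0.12 in HC against CC and from 0.09 to 0.22 in HHC against CCC. With CCC in place of CC, an alternative chosen after seeing the data, Tyrobp turned to −0.22 and Lyz2 to −0.17 in HC. Over all kept nuclei 5 members were then higher (5.24% of all genes tested). Subtracting the level per nucleus of the 7 non-immune classes, also added after seeing the data, carries no interval and left some controls at or below background. After it, 7 (H against C), 6 (HH against CC), 6 (HC against CC), 7 (HHC against CCC) and 6 (HCH against CCH) members had a ratio and were at least 2-fold higher. With the mesothelial level these counts were 7, 5, 5, 7 and 7. No share of all genes was computed under a subtraction, so how unusual these counts are cannot be told. In HCH against CCH, 8 of 9 members were called under either subtraction, controls at or below background included. With the 7 classes subtracted, Lyz2 fell short of 2-fold there, at 1.40 UMIs per nucleus in HCH and 0.735 in CCH. Of 423 member ratios in macrophage-gated nuclei under all alternatives, 327 stayed within their counting interval, 94 moved beyond it and 2 reversed, with 22 of 42 moved without an upper gene limit, 17 of 43 with the second marker list, 16 of 33 and 14 of 32 under the subtractions, 5 of 8 with C in place of CC and 6 of 8 with CCC. Of the counts and shares, 85 stayed and 38 moved. The cause was not tested.

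The share of macrophage-gated nuclei with at least 3 members depended on depth. Thinned to 500 UMIs it was 0.106% (C), 0% (CC), 0.417% (CCC), 47.7% (H), 42.4% (HH), 19.7% (HC), 43.4% (HHC), 0.470% (CCH) and 17.6% (HCH). Without thinning it was, in the same order, 3.29%, 2.58%, 6.67%, 98.6%, 97.2%, 77.6%, 99.4%, 8.61% and 91.7%. With no upper gene limit it was 1.41% (C), 47.9% (HC) and 77.6% (HHC). With 1 marker more it was 73.9% (HH). With the second marker list it was 1.42% (C), 6.02% (CCC), 83.2% (H), 79.8% (HH), 79.6% (HHC), 2.53% (CCH) and 51.3% (HCH). Requiring at least 4 members gave 0% (C and CC), 55.1% (H), 51.5% (HH), 20.6% (HC), 47.9% (HHC), 0.237% (CCH) and 20.6% (HCH). In the non-immune background the corresponding shares (H, HH, HC, HHC, HCH) were 19.9%, 20.3%, 1.15%, 21.7% and 5.68% at 500 UMIs, 92.4%, 85.7%, 32.5%, 95.7% and 75.4% without thinning and 23.7%, 21.4%, 0.899%, 20.5% and 6.76% for at least 4 members. Few nuclei limit CC and CCC, where the macrophage gate held 233 and 240 and left Trem2, Spp1 and Itgax at 0 to 2 UMIs in CC.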
